A study of Homo sapiens with 12 samples.

Results

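The 9 genes described here encode proteins that tie cell junctions to the Hippo pathway, namely the angiomotins AMOT, AMOTL1 and AMOTL2, the phosphatase PTPN14, the FERM protein FRMD6, the LIM domain protein LIMD1, and the giant cadherins FAT1, FAT4 and DCHS1. They were chosen by name, and each was read from the locus that lists its symbol, so they are 9 of the 31585 loci with a value in the RNA-seq table. An FPKM, the number of fragments scaled to transcript length and to the size of the library, of at least 1 in at least 3 libraries was required for a test. 7 of the 9 genes and 15055 of all loci met this, and FAT4 and DCHS1 did not.

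The libraries came from A375, a hypotriploid human melanoma cell line, stably transduced with the retroviral vector MSCV-IRES-Hygro either empty (Control) or carrying a mutant YAP. YAP-S127A cannot be held in the cytoplasm through phosphorylation of the serine that S127A replaces, YAP-2SA (S127A,S381A) also lacks the serine that marks YAP for degradation, and YAP-S94A,S127A carries in addition to S127A a mutation that stops binding to the TEAD transcription factors. Each of the 4 groups had 3 libraries, and nothing states whether the 3 came from separate transductions or whether a transduced population was clonal, so p-values measure only the spread between these libraries. All groups grew on plastic in serum-containing medium.

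The library labels raise 2 doubts. YAP1 was 34.1, 33.0 and 172 FPKM in the Control libraries, while it ran from 130 to 187 FPKM over the 9 libraries with a YAP construct, so the library labelled Control replicate 3 carries YAP1 at the level of the constructs. CTGF, CYR61 and ANKRD1, target genes of YAP, were 12.7, 19.8 and 0.335 FPKM in that library, against ranges of 23.5 to 26.6, 36.1 to 41.7 and 3.67 to 4.24 FPKM in YAP-S127A. In YAP-S94A,S127A, with YAP1 from 149 to 162 FPKM, these genes ran from 9.94 to 12.8, 13.1 to 17.0 and 0.545 to 1.395 FPKM. All of them overlapped between Control and YAP-S94A,S127A, so they cannot tell those groups apart. Which construct that Control library carried, if any, was not tested. Calls against Control are also given without that library. The titles of the YAP-2SA libraries name S127A and S381A, whereas their condition field also lists S94A, and the titles were followed. The same 3 target genes had mean levels of 57.9, 106 and 17.1 FPKM in the YAP-2SA libraries, against 12.5, 16.9 and 0.744 in Control and 11.2, 14.9 and 0.887 in YAP-S94A,S127A.

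The cell type was checked on marker genes. Of the melanocyte lineage markers, MITF, SOX10 and S100B were above 1 FPKM in Control, whereas PMEL, MLANA and TYRP1 stayed below 1 FPKM in every library and TYR and DCT were at 0 in 10 and 11 of the 12 libraries. The summed FPKM of the 8 melanocyte markers ran from 281 to 345 in Control, from 231 to 300 in YAP-S127A, from 301 to 336 in YAP-S94A,S127A and from 39.5 to 49.8 in YAP-2SA, where SOX10 ran from 4.53 to 7.25 FPKM and S100B from 0.606 to 1.03 FPKM. The markers did not move together, since MITF ran from 5.01 to 11.02 FPKM in Control, from 11.9 to 14.6 in YAP-S127A and from 30.1 to 41.1 in YAP-2SA, and TYRP1 from 0.0281 to 0.152 FPKM in Control and from 0.660 to 0.949 in YAP-2SA. The summed FPKM of the 6 epithelial markers ran from 180 to 216 in Control, from 405 to 436 in YAP-S127A, from 185 to 192 in YAP-S94A,S127A and from 1217 to 1394 in YAP-2SA, nearly all of it KRT18 and KRT8, with CDH1 at most 0.117 FPKM and EPCAM at most 0.149 FPKM. KRT14 of the same list went the other way, from 6.16 to 7.62 FPKM in Control and from 0.362 to 0.551 FPKM in YAP-2SA. The 3 fibroblast markers summed to 3.57 to 5.58 FPKM in Control and to 10.5 to 14.1 FPKM in YAP-2SA. Most of this was PDGFRB, from 2.12 to 3.10 FPKM in Control and from 8.11 to 12.1 FPKM in YAP-2SA. LUM was also higher, from 1.13 to 1.79 FPKM in Control and from 1.91 to 2.86 FPKM in YAP-2SA. DCN went the other way, from 0.315 to 0.692 FPKM in Control and from 0.0996 to 0.258 FPKM in YAP-2SA. The 3 leukocyte markers summed to at most 0.0762 FPKM and the 3 endothelial ones to at most 0.656 FPKM in any library. In these bulk libraries fewer cells of a kind and less RNA per cell cannot be told apart, and the part of these marker shifts in the results for the 9 genes was not tested.

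The Hippo pathway is a kinase cascade in which MST kinases activate LATS kinases, which phosphorylate YAP and keep it out of the nucleus, where it would otherwise switch on genes through TEAD factors. Angiomotins sit at tight junctions and on actin filaments, bind the WW domains of YAP and can activate LATS. PTPN14 also binds YAP through WW domains, FRMD6 is the counterpart of the fly protein Expanded, LIMD1 holds LATS at junctions and stress fibres and restrains it, and the giant cadherins FAT and DCHS bind each other across cell borders upstream of Hippo signalling and planar cell polarity. AMOTL2 is widely used as a target gene of YAP, so the family includes both regulators and targets of the same pathway.

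The promoters of 3 members are shown because the genes behaved differently, with AMOTL2 higher and AMOT lower in YAP-2SA and PTPN14 past no test against Control. Each is the 250 bases before a transcription start of the RefSeq promoter table (GRCh38.p14), printed 5′ to 3′ on the gene's strand, and each matched the GRCh37 genome exactly once, at the GRCh37 positions given here. They are AMOTL2 (chr3:134093290-134093539, minus strand), PTPN14 (chr1:214724946-214725195, minus strand) and AMOT (chrX:112084060-112084309, minus strand). Capitals mark CATTCC, the reverse complement of GGAATG, the core letters of the TEAD binding element. For AMOTL2 the window printed was chosen because it held CATTCC, and the window of a further start, which held none, is not printed.
AMOTL2: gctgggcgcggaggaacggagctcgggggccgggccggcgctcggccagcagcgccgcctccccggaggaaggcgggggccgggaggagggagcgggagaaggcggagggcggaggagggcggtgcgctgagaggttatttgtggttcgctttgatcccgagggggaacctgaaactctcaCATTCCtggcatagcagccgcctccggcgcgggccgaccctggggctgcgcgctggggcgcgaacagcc
PTPN14: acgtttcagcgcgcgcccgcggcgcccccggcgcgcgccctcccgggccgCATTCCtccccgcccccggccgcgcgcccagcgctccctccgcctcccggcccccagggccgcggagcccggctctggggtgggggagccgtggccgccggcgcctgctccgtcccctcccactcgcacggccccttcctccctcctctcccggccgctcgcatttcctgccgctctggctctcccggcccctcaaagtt
AMOT: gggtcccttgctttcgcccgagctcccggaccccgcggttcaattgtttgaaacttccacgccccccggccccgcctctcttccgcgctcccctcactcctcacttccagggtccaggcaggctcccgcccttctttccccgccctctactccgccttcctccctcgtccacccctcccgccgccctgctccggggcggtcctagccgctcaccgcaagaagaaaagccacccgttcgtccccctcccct
The letters GGAATG were searched on both strands, alone, so that no other motif could overlap them. CATTCC began 69 bases before this AMOTL2 start, in a window that overlaps exons of other AMOTL2 transcripts, and 200 bases before the PTPN14 start. The AMOT window held neither GGAATG nor CATTCC, and the other 5 windows found, at a further AMOTL2 start, at AMOTL1, at FRMD6 and at both FAT1 starts, held none either. Of 35116 promoter windows of this length, 4175 (11.9%) held a match, so the letters alone are common and are no evidence of binding. The table matched 6 of the 9 genes and did not list LIMD1, FAT4 and DCHS1.

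**Figure D1:**
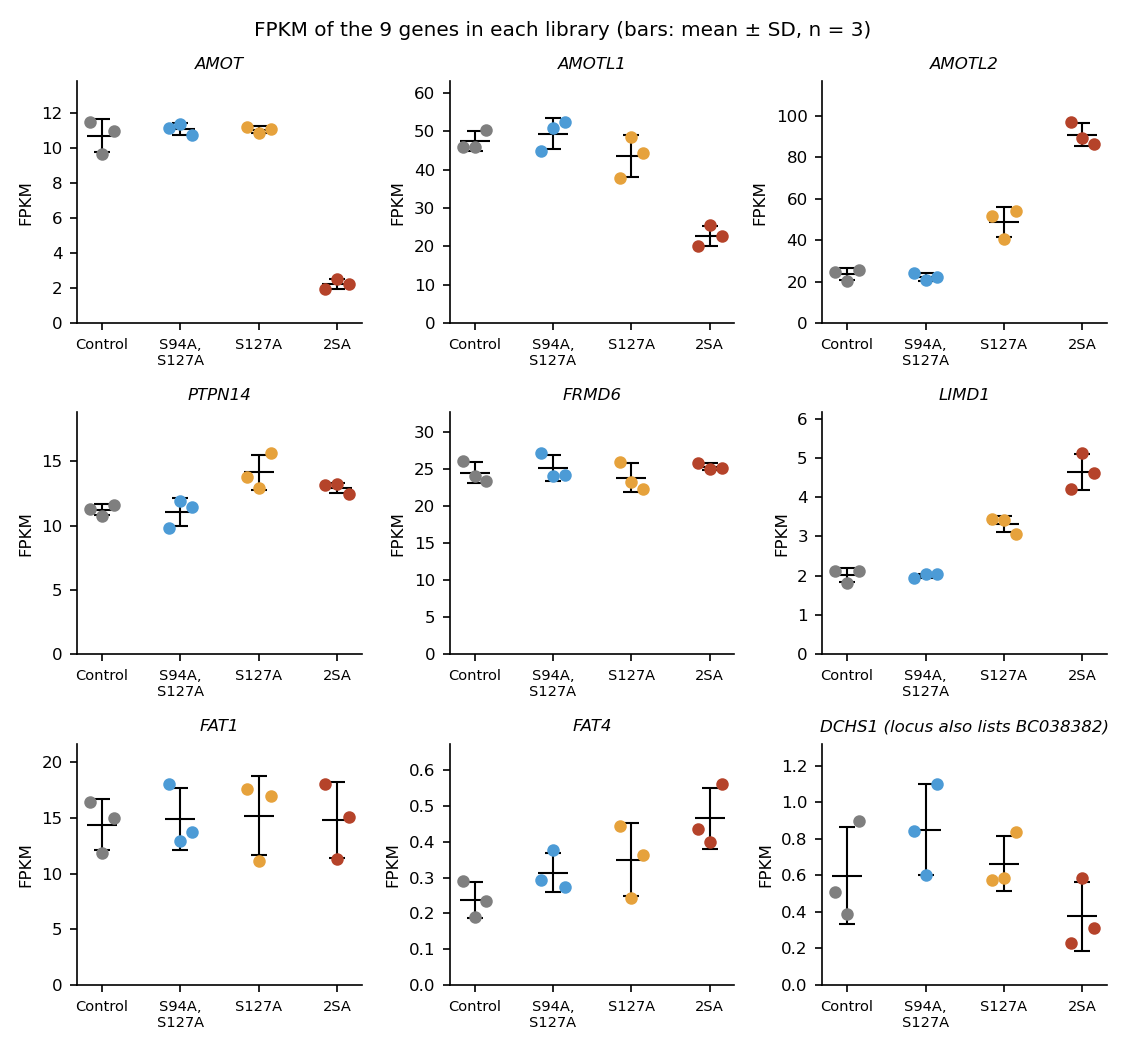
FPKM (linear axis from 0) of each of the 9 genes in the 12 libraries, with points for single libraries and bars for the mean ± SD of the 3 libraries of a group. AMOT and AMOTL1 lie lowest in the YAP-2SA libraries, AMOTL2 and LIMD1 lie higher in YAP-S127A than in Control and YAP-S94A,S127A and highest in YAP-2SA, and FRMD6 and FAT1 overlap between all groups.

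YAP-2SA against Control asked what the most active YAP did to these genes. AMOTL2 and LIMD1 rose and AMOT and AMOTL1 fell, while PTPN14, FRMD6 and FAT1 did not pass the test. These 4 of 7 tested genes passed both an adjusted p under 0.05 (limma with Benjamini-Hochberg adjustment over all 15055 loci) and a difference in mean FPKM between the groups of over 2-fold. The same criteria were met by 15.5% of all tested loci, and the adjusted p alone by 42.3% of them and by the same 4 genes, so a change as such was common in YAP-2SA. The median log2 fold change of the 7 genes was 0.045, beside 0.008 over all tested loci, since members moved both ways.

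AMOT (chromosome X, 112017731 to 112084059 in GRCh37, minus strand), the founding angiomotin, was 11.5, 9.64 and 10.9 FPKM in the 3 Control libraries and 1.95, 2.52 and 2.25 FPKM in the 3 YAP-2SA libraries. It was 11.2, 10.8 and 11.1 FPKM in YAP-S127A and 11.1, 11.4 and 10.7 FPKM in YAP-S94A,S127A. Every YAP-2SA library thus lay below all 9 others, and the 3 remaining groups overlapped. The mean FPKM was 4.78-fold lower in YAP-2SA than in Control, which was a fall by 1.85 on the log2(FPKM + 1) scale (SE 0.0791, 95% interval from -2.03 to -1.68, adjusted p = 2.04e-08). AMOT ranked 228 of the 15055 loci by p. Without the library labelled Control replicate 3 the value was -1.84 (adjusted p = 3.56e-07).

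AMOT in YAP-S127A did not pass the test against Control, with a difference of 0.04 on the log2(FPKM + 1) scale (95% interval from -0.13 to 0.22, adjusted p = 0.828). The direct comparison of YAP-2SA with YAP-S127A gave a fall by 1.90 on that scale (SE 0.0791, adjusted p = 4.03e-08), with the mean FPKM 4.93-fold lower, and AMOT ranked 91 of all loci there. The fall of AMOT in YAP-2SA therefore differed from what YAP-S127A showed by a test of the difference itself. SOX10 and S100B were low in the same YAP-2SA libraries as AMOT, as given above, while MITF was high there, and the part of these shifts in the fall was not tested.

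AMOTL1 (chromosome 11, 94439597 to 94609913, plus strand), an angiomotin that also lies at tight junctions, was the most abundant of the 9 genes in Control, at 45.9, 46.0 and 50.3 FPKM, and was 20.2, 25.4 and 22.6 FPKM in YAP-2SA. The groups did not overlap. It fell by 1.03 on the log2(FPKM + 1) scale (SE 0.106, adjusted p = 1.95e-05), with the mean FPKM 2.08-fold lower. This ratio sat close to the threshold and slipped under it without YAP-2SA replicate 1 (log2 ratio -0.98, adjusted p = 0.00011), while without the library labelled Control replicate 3 the value was -0.99 on the log2(FPKM + 1) scale (adjusted p = 0.000159). An unnamed gene on the opposite strand (ENSG00000256469) overlaps an AMOTL1 exon, and reads of both cannot be told apart where strand is not known.

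AMOTL1 was 37.7, 48.5 and 44.4 FPKM in YAP-S127A and 44.7, 50.9 and 52.5 FPKM in YAP-S94A,S127A, so both groups overlapped Control. YAP-S127A differed from Control by -0.13 on the log2(FPKM + 1) scale (95% interval from -0.36 to 0.11, adjusted p = 0.578). YAP-2SA was lower than YAP-S127A by 0.91 on that scale (adjusted p = 8.54e-05), a 1.91-fold lower mean FPKM that missed the 2-fold threshold except without YAP-S127A replicate 1 (log2 ratio -1.03) or without YAP-2SA replicate 2 (log2 ratio -1.02).

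AMOTL2 (chromosome 3, 134074189 to 134094321, minus strand), which couples junctions to actin and whose promoter with CATTCC is printed above, was 24.8, 20.4 and 25.7 FPKM in Control. It was 51.7, 40.3 and 54.2 FPKM in YAP-S127A, 24.2, 20.6 and 22.0 FPKM in YAP-S94A,S127A, and 97.1, 89.1 and 86.2 FPKM in YAP-2SA. Control and YAP-S94A,S127A overlapped, every YAP-S127A library lay above both, and every YAP-2SA library lay above every YAP-S127A library.

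In YAP-2SA, AMOTL2 rose 3.84-fold in mean FPKM over Control, by 1.90 on the log2(FPKM + 1) scale (SE 0.120, 95% interval from 1.64 to 2.17, adjusted p = 4e-07). In YAP-S127A it rose 2.06-fold, by 1.01 on that scale (95% interval from 0.74 to 1.27, adjusted p = 0.000549). Without the library labelled Control replicate 3 these values were 1.97 (adjusted p = 2.6e-06) and 1.07 (adjusted p = 0.0015). The 2-fold criterion for YAP-S127A was missed without Control replicate 2 (log2 ratio 0.95), YAP-S127A replicate 1 (log2 ratio 0.999) or YAP-S127A replicate 3 (log2 ratio 0.96), at adjusted p values of at most 0.00379.

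The step from YAP-S127A to YAP-2SA was tested directly. AMOTL2 was 1.86-fold higher in YAP-2SA, by 0.89 on the log2(FPKM + 1) scale (adjusted p = 0.000218). The step from YAP-S94A,S127A to YAP-S127A was 2.19-fold, by 1.09 on that scale (95% interval from 0.82 to 1.35, adjusted p = 0.000244). An RPL39 pseudogene, RPL39P5, lies within an AMOTL2 exon, and RPL39 itself had similar mean levels of 2413, 2245, 2459 and 2426 FPKM in Control, YAP-S127A, YAP-S94A,S127A and YAP-2SA. KRT18 and KRT8 were higher in the same groups as AMOTL2, while KRT14 was low in YAP-2SA, and the part of these shifts in its rise was not tested.

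Because FPKM is per length, the 3 angiomotins can be added within a library. Their sum was 82.1, 76.0 and 87.0 FPKM in Control, 101, 99.6 and 110 FPKM in YAP-S127A, 80.1, 82.9 and 85.2 FPKM in YAP-S94A,S127A, and 119, 117 and 111 FPKM in YAP-2SA. The summed level was thus higher in both groups with TEAD-binding YAP than in Control and YAP-S94A,S127A, with no overlap, although AMOT and AMOTL1 fell in YAP-2SA. AMOTL2 made up 28.9% ± 1.80 of the sum in Control (SD, n = 3), 47.1% ± 5.82 in YAP-S127A, 27.0% ± 2.87 in YAP-S94A,S127A and 78.4% ± 2.75 in YAP-2SA.

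The composition turned over in YAP-2SA. AMOTL1 held the greater part in Control, 58.1% ± 2.34, and 19.7% ± 2.48 in YAP-2SA, and AMOT went from 13.1% ± 0.772 to 1.94% ± 0.268 (SD, n = 3 each). Of the YAP-S127A libraries, AMOTL2 led AMOTL1 in replicate 1 (51.4% against 37.5%) and replicate 3 (49.4% against 40.5%) but not in replicate 2 (40.5% against 48.7%). These shares are given as descriptions and were not tested.

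**Figure D2:**
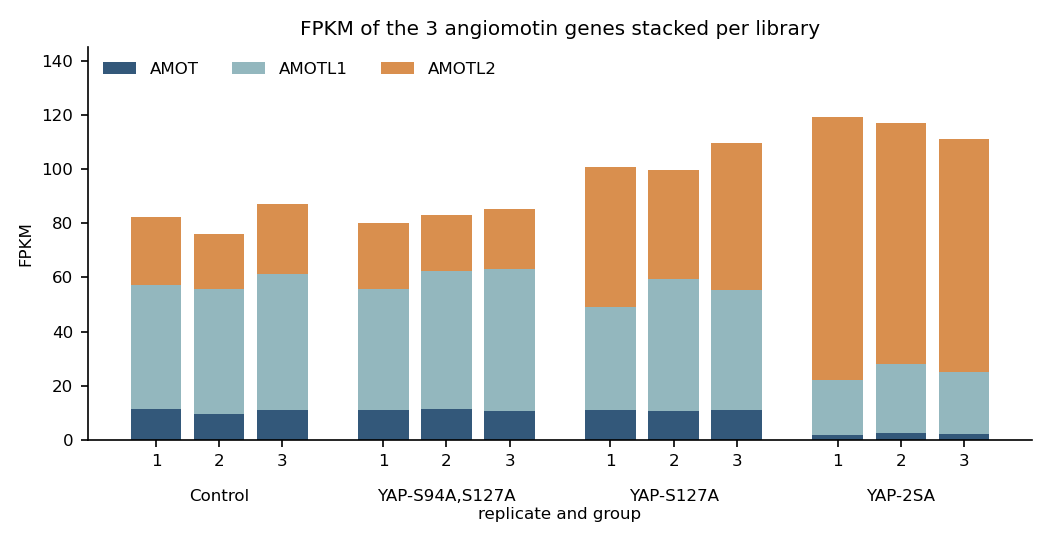
FPKM of AMOT, AMOTL1 and AMOTL2 stacked for each of the 12 libraries on a linear axis from 0. The stacks are tallest in YAP-2SA, at 111 to 119 FPKM, and AMOTL2 takes from 24.9% to 30.2% of the stack in Control and YAP-S94A,S127A and from 76.1% to 81.5% in YAP-2SA.

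The enzymes that control angiomotin stability were read from a list of 9 genes, all tested. In YAP-2SA against Control, 1 rose and 2 fell at an adjusted p under 0.05, with a median log2 fold change of -0.126. Over all tested loci 22.9% rose and 19.5% fell at that threshold, 7.59% and 7.86% past 2-fold as well, so changes in this list were no more frequent than in general. NEDD4L, a ubiquitin ligase, rose by 1.05 on the log2(FPKM + 1) scale, from 41.8 ± 4.90 to 88.7 ± 21.7 FPKM (SD, n = 3, adjusted p = 0.00192), and passed the fold threshold. WWP2, a ligase of the same family, fell from 35.5 ± 4.22 to 18.7 ± 1.18 FPKM (adjusted p = 0.000141), and TNKS2, a tankyrase that marks angiomotins for degradation, fell from 16.4 ± 0.807 to 13.8 ± 0.655 FPKM (adjusted p = 0.0221), neither past 2-fold. In limma none of the 9 passed in YAP-S127A or YAP-S94A,S127A against Control, beside 6.31% and 0.179% of all loci. None of the 9 had an unadjusted p under 0.05 there, beside 2953 and 661 of the 15055 loci.

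PTPN14 (chromosome 1, 214522043 to 214725792, minus strand), the phosphatase that binds YAP, was 11.3, 10.8 and 11.6 FPKM in Control, 13.8, 13.0 and 15.7 in YAP-S127A, 9.84, 11.9 and 11.5 in YAP-S94A,S127A, and 13.1, 13.2 and 12.5 in YAP-2SA. The YAP-S127A and YAP-2SA libraries all lay above all Control libraries, and the 2 groups overlapped each other. The differences were small, at 1.26-fold for YAP-S127A against Control (0.30 on the log2(FPKM + 1) scale, 95% interval from 0.12 to 0.49, adjusted p = 0.0583) and 1.15-fold for YAP-2SA (0.19, 95% interval from 0.01 to 0.37, adjusted p = 0.0905), and neither passed. Without the library labelled Control replicate 3 the differences were 0.33 (adjusted p = 0.1) and 0.21 (adjusted p = 0.115).

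PTPN14 was 1.28-fold higher in YAP-S127A than in YAP-S94A,S127A, by 0.33 on the log2(FPKM + 1) scale (SE 0.0821, adjusted p = 0.0297). This call was lost when only the libraries compared were fitted (adjusted p = 0.124), without YAP-S127A replicate 1 or 3 (0.0624 and 0.0875) and without YAP-S94A,S127A replicate 1 or 3 (0.101 and 0.0647), all as adjusted p values. The call against Control was gained for YAP-S127A without YAP-S127A replicate 2 (adjusted p = 0.0445) or without YAP-S94A,S127A replicate 1 (0.0386), and for YAP-2SA when only the libraries compared were fitted (0.0473). A KRT18 pseudogene, KRT18P12, overlaps a PTPN14 exon on the opposite strand, and KRT18 was 179 ± 18.1, 367 ± 14.1, 171 ± 3.46 and 1164 ± 90.7 FPKM in Control, YAP-S127A, YAP-S94A,S127A and YAP-2SA (SD, n = 3), so reads shared between them, whose part was not tested, would leave PTPN14 uncertain.

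FRMD6 (chromosome 14, 51955818 to 52197445, plus strand), also called Willin, showed no difference past the test in any of the 5 comparisons. Its levels were 26.1, 24.0 and 23.4 FPKM in Control, 26.0, 23.3 and 22.2 in YAP-S127A, 27.2, 24.1 and 24.3 in YAP-S94A,S127A, and 25.8, 24.9 and 25.1 in YAP-2SA, and all groups overlapped. In YAP-2SA against Control the difference was 0.05 on the log2(FPKM + 1) scale, with a 95% interval from -0.11 to 0.20 (adjusted p = 0.645), and without the library labelled Control replicate 3 it was 0.01 (adjusted p = 0.917).

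The relatives of PTPN14 and FRMD6, a list of FERM domain phosphatases and other FRMD genes, were lower in YAP-2SA than in Control in most cases. Of 9 tested, 7 fell and 1 rose at an adjusted p under 0.05, and 4 of them fell past 2-fold. The shares of all tested loci were 19.5% down and 22.9% up, and 7.86% down past 2-fold as well. The median log2 fold change of the relatives was -0.794. FRMD3, a FERM protein of the membrane skeleton, fell from 7.43 ± 0.417 to 0.8995 ± 0.338 FPKM (SD, n = 3, adjusted p = 1.25e-07), and FRMD4B from 11.4 ± 2.33 to 2.15 ± 0.156 FPKM (adjusted p = 9.86e-06). FRMD4A, which binds the PAR3 polarity complex, fell from 22.6 ± 0.673 to 9.22 ± 1.95 FPKM (adjusted p = 3.78e-05) and FRMD5 from 10.6 ± 1.52 to 4.47 ± 0.764 FPKM (adjusted p = 0.000185). PTPN21, the nearest relative of PTPN14, rose from 1.64 ± 0.110 to 2.36 ± 0.0839 FPKM (adjusted p = 0.00867), under 2-fold. Without the library labelled Control replicate 3, 6 fell and 1 rose.

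In limma none of the 9 relatives passed in YAP-S127A or YAP-S94A,S127A against Control, beside 6.31% and 0.179% of all loci. There 1 and 0 had an unadjusted p under 0.05, beside 2953 and 661 of the 15055 loci. In YAP-S127A against YAP-S94A,S127A, 2 fell and 0 rose in limma, PTPN3 (adjusted p = 0.0134) and FRMD3 (0.0452). Neither fell past 2-fold, and 4.31% of all loci fell at that threshold. In YAP-2SA against YAP-S127A, 7 fell and none rose at an adjusted p under 0.05, 3 of them past 2-fold. Among all tested loci 14.5% fell and 18.3% rose in that comparison, and 5.94% fell past 2-fold as well. SOX10 and S100B were low and MITF high in the same YAP-2SA libraries, as beside AMOT, and the part of that shift was not tested.

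LIMD1 (chromosome 3, 45596886 to 45727833, plus strand), the LIM protein that restrains LATS, was 2.12, 1.80 and 2.11 FPKM in Control, 3.45, 3.42 and 3.07 in YAP-S127A, 1.93, 2.03 and 2.03 in YAP-S94A,S127A, and 4.22, 5.13 and 4.61 in YAP-2SA. The order was that of AMOTL2, with Control and YAP-S94A,S127A overlapping and the other groups apart from them and from each other. LIMD1 rose 2.31-fold in mean FPKM in YAP-2SA over Control, by 0.91 on the log2(FPKM + 1) scale (SE 0.0823, 95% interval from 0.72 to 1.09, adjusted p = 7.15e-06). In YAP-S127A it rose 1.65-fold, by 0.52 on that scale (adjusted p = 0.00366), and without the library labelled Control replicate 3 the values were 0.93 (adjusted p = 4.48e-05) and 0.54 (adjusted p = 0.0104).

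LIMD1 was 1.41-fold higher in YAP-2SA than in YAP-S127A, by 0.39 on the log2(FPKM + 1) scale (95% interval from 0.21 to 0.57, adjusted p = 0.00443), and 1.66-fold higher in YAP-S127A than in YAP-S94A,S127A, by 0.52 on that scale (adjusted p = 0.00258). At these low levels the added 1 makes the log2 values smaller than the ratios of FPKM. On the log2(FPKM + 1) scale the rise of LIMD1 in YAP-2SA over Control, 0.91, fell short of 2-fold. A filter at an FPKM of 5 left LIMD1 out of the test. With either change 3 members, not 4, passed both criteria in that comparison. An antisense gene, LIMD1-AS1, shares exonic sequence with LIMD1, and since no source used here says that strand was kept, reads of the 2 genes cannot be told apart.

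The other LIM domain proteins of the Zyxin and Ajuba family moved alongside. Of 6 tested, 4 rose and none fell at an adjusted p under 0.05 both in YAP-2SA and in YAP-S127A against Control. Of these, 3 and 2 were past 2-fold, and the median log2 fold changes of the 6 were 0.971 and 0.455. Among all tested loci 22.9% rose in YAP-2SA and 4.56% in YAP-S127A, and 7.59% and 2.07% past 2-fold as well. AJUBA, which like LIMD1 binds LATS at junctions, had mean levels of 8.07, 21.1, 6.04 and 50.9 FPKM in Control, YAP-S127A, YAP-S94A,S127A and YAP-2SA (2.52 on the log2(FPKM + 1) scale in YAP-2SA, adjusted p = 1.53e-07). WTIP, the third Ajuba-type protein, had mean levels of 1.15, 4.97, 1.07 and 13.6 FPKM in the same order (2.78, adjusted p = 9.62e-09). TRIP6 rose from 46.6 ± 1.68 to 97.8 ± 3.88 FPKM in YAP-2SA (SD, n = 3, adjusted p = 2.32e-06) and ZYX, zyxin of focal adhesions, from 64.7 ± 3.64 to 121 ± 9.35 FPKM (adjusted p = 3.45e-06), the latter under 2-fold. LPP and FBLIM1 were near 1 FPKM and passed in neither comparison.

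FAT1 (chromosome 4, 187508948 to 187647876, minus strand), the giant cadherin with a measurable level here, was 16.4, 11.9 and 14.96 FPKM in Control, 17.6, 11.2 and 16.9 in YAP-S127A, 18.1, 12.9 and 13.8 in YAP-S94A,S127A, and 18.1, 11.3 and 15.1 in YAP-2SA. The groups overlapped throughout, and the library numbered 2 was the lowest of its group each time. The difference of YAP-2SA from Control was 0.03 on the log2(FPKM + 1) scale with a 95% interval from -0.44 to 0.49 (SE 0.210, adjusted p = 0.933), wider than for the other members. When limma was given the replicate numbers as a block, the difference was the same with an SE of 0.0846 (adjusted p = 0.82). Without the library labelled Control replicate 3 it was 0.06 (adjusted p = 0.879). The adjusted p values of FAT1 in the 4 remaining comparisons ran from 0.92 to 1.

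FAT4 (chromosome 4, 126236073 to 126414087, plus strand), a receptor in FAT-DCHS signalling, was under 1 FPKM in every library and was left out of the test. It was 0.290, 0.191 and 0.234 FPKM in Control, 0.445, 0.242 and 0.364 in YAP-S127A, 0.293, 0.378 and 0.273 in YAP-S94A,S127A, and 0.435, 0.401 and 0.563 in YAP-2SA. The YAP-2SA libraries lay above the Control libraries and overlapped YAP-S127A. When all loci were tested without a filter on low values, the difference of YAP-2SA from Control was 0.24 on the log2(FPKM + 1) scale (SE 0.0637, adjusted p = 0.0153), and the log2 ratio of 0.97 stayed under 2-fold. Of the 23437 loci tested in that way, 31.0% passed the adjusted p.

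DCHS1 (chromosome 11, 6642561 to 6677040, minus strand), a ligand of FAT4, also failed the filter. Its locus also lists the transcript BC038382, and it overlaps the antisense gene DCHS1-AS1, so its reads are uncertain too. The locus was 0.509, 0.391 and 0.896 FPKM in Control, 0.572, 0.583 and 0.838 in YAP-S127A, 0.842, 0.604 and 1.10 in YAP-S94A,S127A, and 0.229, 0.587 and 0.311 in YAP-2SA. YAP-2SA overlapped Control, and without the filter the difference between them was -0.21 on the log2(FPKM + 1) scale (SE 0.145, adjusted p = 0.319).

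Partners of the giant cadherins and planar polarity genes were a list of 12, of which 8 were tested. In YAP-2SA against Control, 4 rose and 2 fell at an adjusted p under 0.05, beside 22.9% and 19.5% of all loci. Past 2-fold as well, 2 of the list and 7.59% of all loci rose. The median log2 fold change of the list was 0.18. FJX1, the counterpart of the fly kinase Four-jointed that acts on FAT and DCHS cadherin domains, had mean levels of 13.7, 22.2, 13.0 and 36.5 FPKM in Control, YAP-S127A, YAP-S94A,S127A and YAP-2SA (1.35 on the log2(FPKM + 1) scale in YAP-2SA, adjusted p = 7.62e-06). VANGL2, a core planar polarity protein, had mean levels of 1.14, 2.05, 1.12 and 4.20 FPKM (1.28, adjusted p = 5.23e-06). CELSR1 fell from 4.22 ± 0.235 to 3.11 ± 0.141 FPKM (SD, n = 3, adjusted p = 0.0104) and CELSR2, a protein of the same cadherin family, rose from 4.31 ± 0.695 to 7.24 ± 0.717 FPKM (adjusted p = 0.00052). FAT3 was not tested, at 0.181 ± 0.0233 FPKM in Control and 0.807 ± 0.0821 FPKM in YAP-2SA.

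**Figure D3:**
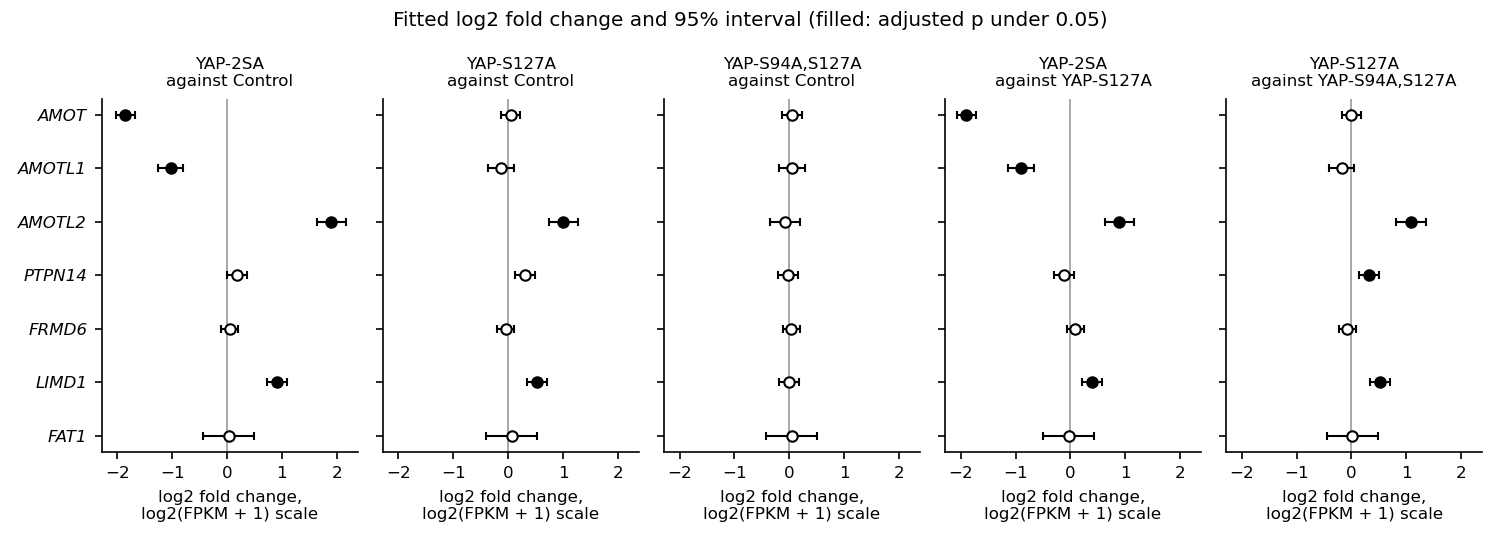
Fitted difference of each tested gene on the log2(FPKM + 1) scale with its 95% interval in the 5 comparisons, filled where the adjusted p was under 0.05. AMOT and AMOTL1 lie left of 0 in both comparisons of YAP-2SA, at -1.85 and -1.03 against Control, AMOTL2 and LIMD1 lie right of 0 in 4 comparisons, and no point is filled for YAP-S94A,S127A against Control.

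YAP-S94A,S127A against Control asked what the S127A form did to these genes without TEAD binding. By the titles, no group carried S94A together with S381A. AMOT and AMOTL1 did not pass in YAP-S127A against Control either. Whether their fall in YAP-2SA depends on TEAD binding was therefore not tested. None of the 7 tested genes passed the test (limma with Benjamini-Hochberg adjustment, every adjusted p = 1). None had an unadjusted p under 0.05, beside 661 of all 15055 loci, which does not set the 7 genes apart. Over all loci, 0.179% passed the adjusted p and 0.173% both criteria, so calls were rare in this comparison for any locus. The 95% intervals of AMOTL2 (from -0.34 to 0.19) and AMOT (from -0.13 to 0.23) bound the differences on the log2(FPKM + 1) scale that these libraries could have missed.

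In YAP-S127A against Control, 2 of the 7 genes rose at an adjusted p under 0.05, AMOTL2 and LIMD1, and 1 of them, AMOTL2, past 2-fold. Over all loci, 6.31% passed the adjusted p and 2.47% both criteria. In YAP-S127A against YAP-S94A,S127A, the 3 genes AMOTL2, LIMD1 and PTPN14 were higher at an adjusted p under 0.05, beside 10.7% of all loci in either direction, and AMOTL2 was past both criteria, beside 3.49%. In YAP-2SA against YAP-S127A, AMOTL2 and LIMD1 were higher and AMOT and AMOTL1 lower at an adjusted p under 0.05, beside 32.8% of all loci, and AMOT was past both criteria, beside 11.1%. The comparisons against Control share their Control libraries, and those with YAP-S127A share its libraries.

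The order of levels among the 9 genes changed with YAP-2SA. In Control it ran, by mean FPKM, from AMOTL1 (47.4) through FRMD6 (24.5) and AMOTL2 (23.6), FAT1 (14.4), PTPN14 (11.2) and AMOT (10.7) to LIMD1 (2.01), DCHS1 (0.599) and FAT4 (0.238), where FRMD6 and AMOTL2 overlapped, as did PTPN14 and AMOT. In YAP-2SA it ran from AMOTL2 (90.8) through FRMD6 (25.3), AMOTL1 (22.7), FAT1 (14.8), PTPN14 (12.9), LIMD1 (4.65) and AMOT (2.24) to FAT4 (0.466) and DCHS1 (0.3755). There FRMD6 overlapped AMOTL1, FAT1 overlapped PTPN14 and FAT4 overlapped DCHS1. AMOT lay above LIMD1 in every Control library and below it in every YAP-2SA library.

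The wider set of junction genes was read from lists of related genes. Of 21 tested tight junction and polarity genes, 14 rose and none fell at an adjusted p under 0.05 in YAP-2SA against Control. Among all loci 22.9% rose and 19.5% fell. Past 2-fold as well, 2 of the list and 7.59% of all loci rose, and the median log2 fold change of the list was 0.457. LLGL2, a polarity scaffold, rose from 1.79 ± 0.314 to 7.25 ± 0.721 FPKM (SD, n = 3, adjusted p = 1.14e-06) and DLG1, a partner in the same complex, from 9.82 ± 0.872 to 22.5 ± 2.09 FPKM (adjusted p = 9.57e-06). TJP1, a scaffold to which tight junction strands attach, rose from 12.04 ± 0.513 to 21.1 ± 1.12 FPKM (adjusted p = 6.79e-06), under 2-fold. The strand proteins OCLN and CLDN1 were not tested, and their means in YAP-2SA were 0.225 and 1.06 FPKM.

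Of 10 tested adherens junction genes, 3 rose past 2-fold and 5 fell under 2-fold at an adjusted p under 0.05 in YAP-2SA against Control. Among all loci 22.9% rose and 19.5% fell at that adjusted p, and 7.59% rose past 2-fold as well. The median log2 fold change of the adherens genes was -0.216. VCL, vinculin, rose from 24.1 ± 0.349 to 61.2 ± 0.992 FPKM (SD, n = 3, adjusted p = 3.3e-09), PVRL2, nectin-2, from 10.3 ± 1.88 to 43.9 ± 2.38 FPKM (adjusted p = 1.05e-07) and the CDH11 locus, of a mesenchymal cadherin, from 0.184 ± 0.0897 to 2.71 ± 0.368 FPKM (adjusted p = 1.19e-06). CDH11 met the filter on low values through YAP-2SA, since its means in the other groups were under 1 FPKM, so its call rests on that choice. CTNNB1, beta-catenin, fell from 153 ± 10.9 to 118 ± 2.47 FPKM (adjusted p = 0.000534) and CDH2, N-cadherin, from 41.6 ± 1.77 to 34.4 ± 1.93 FPKM (adjusted p = 0.00437).

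All 16 Hippo kinases, adaptors and scaffolds were tested. In YAP-2SA against Control, 8 rose and 4 fell at an adjusted p under 0.05, beside 22.9% and 19.5% of all loci. Past 2-fold as well, 7.59% of all loci rose, and the median log2 fold change of the 16 genes was 0.161. The 3 past 2-fold all rose, namely WWC1 (1.01 ± 0.235 to 9.50 ± 1.42 FPKM, adjusted p = 8.51e-08), WWC2 (6.52 ± 0.357 to 13.1 ± 1.06 FPKM, adjusted p = 4.16e-06) and LATS2 (5.79 ± 0.433 to 12.7 ± 1.03 FPKM, adjusted p = 2.62e-06), of which WWC proteins scaffold LATS and LATS2 phosphorylates YAP. LATS1 fell from 5.67 ± 0.522 to 4.59 ± 0.527 FPKM (adjusted p = 0.0396).

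In YAP-S127A against Control, genes that rose at an adjusted p under 0.05 numbered 5 of 16 in the Hippo list, 2 of 21 in the tight junction list, 3 of 10 in the adherens list and 3 of 8 in the planar polarity list, and none fell. Over all loci 4.56% rose and 1.75% fell. Without the library labelled Control replicate 3 the counts were 5, 1, 2 and 2. In YAP-2SA, leaving it out gave 7 up and 3 down in the Hippo list and 15 up in the tight junction list, and the same counts as before in the adherens, planar polarity, LIM and angiomotin stability lists. In YAP-S94A,S127A against Control limma called none in these 4 lists or in the LIM family, beside 0.179% of all loci. There 2 Hippo genes and 1 LIM gene had an unadjusted p under 0.05, all lower, beside 661 of the 15055 loci.

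**Figure D4:**
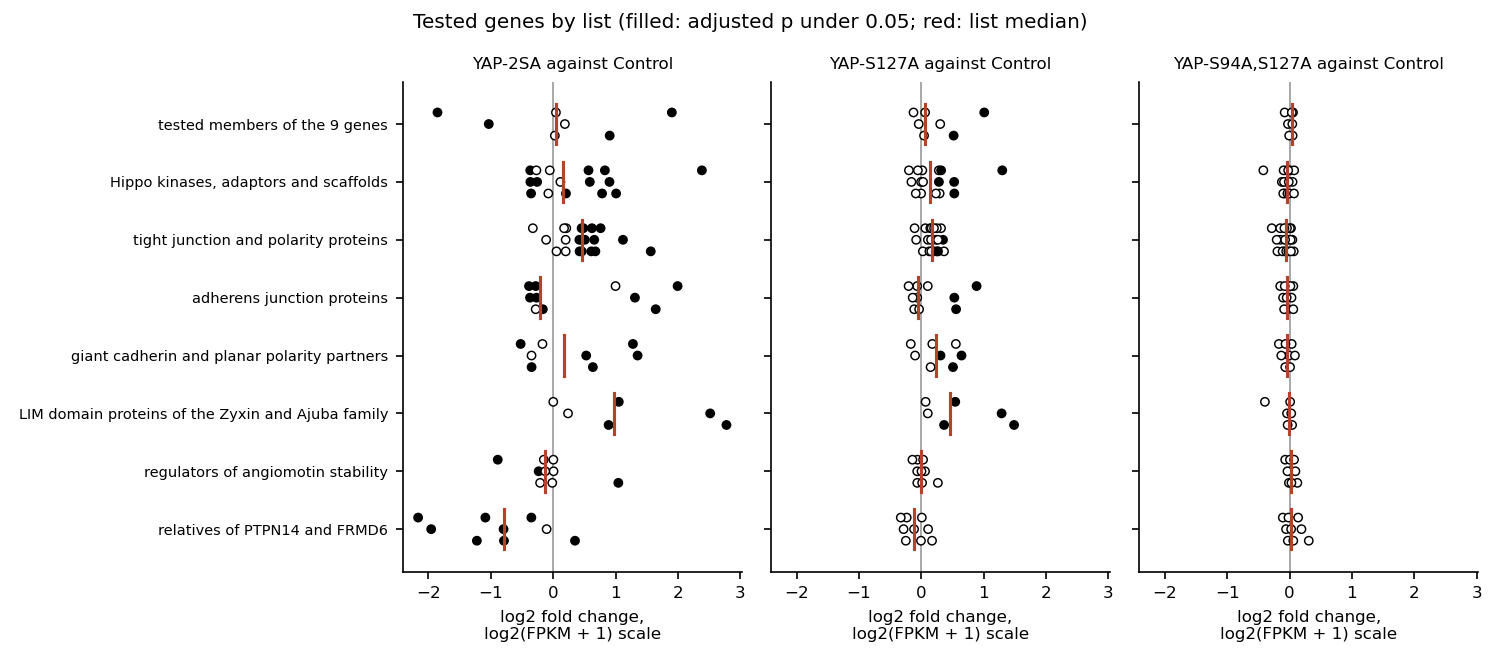
Differences of the tested genes of each list on the log2(FPKM + 1) scale in the 3 comparisons with Control, with filled points for an adjusted p under 0.05 and a red line for the list median. The LIM family median is 0.971 in YAP-2SA and 0.455 in YAP-S127A, the median of the relatives of PTPN14 and FRMD6 is -0.794 in YAP-2SA, and no point is filled for YAP-S94A,S127A.

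The loci whose log2(FPKM + 1) values ran most like the member with the greatest rise and the one with the greatest fall in YAP-2SA were found by Pearson's r over the 12 libraries, which share their 4 groups and unknown depth, so r is a description. For AMOTL2 these were SORBS3 (r = 0.994), GDPD5 (0.993), LATS2 (0.992), PEAR1 (0.991) and ALPP (0.991). Their log2 fold changes in YAP-2SA against Control ran from 1.01 for LATS2 to 5.08 for ALPP, and all were positive in YAP-S127A as well, from 0.53 to 2.55. For AMOT they were ESPN (r = 0.997), PCDH1 (0.996), NFATC2 (0.996), GAS7 (0.995) and the locus of SVIL and BC070247 (0.994). Their log2 fold changes in YAP-2SA ran from -4.39 for GAS7 to -2.69 for the SVIL locus, and in YAP-S127A from -0.198 to 0.056. The loci of both sets were selected for following AMOTL2 or AMOT. That they share the pattern of that gene, in YAP-S127A as in YAP-2SA, is therefore no result.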

How the data were processed

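Total RNA of 12 libraries was sequenced on a HiSeq2000 by the authors, who aligned reads to hg19 with the UCSC known genes (Bowtie2 2.0.0, TopHat2 2.0.4) and summarised them with Cufflinks 2.0.2. The deposited values are log2(FPKM + 1) per locus and library, normalised by the authors for length and library size. Of 31588 rows, 3 identical ones were removed. No counts were used, so the depth behind a value is unknown and its precision is judged by the spread between libraries alone. FPKM summed to between 790865 and 901558 per library, and replicates of a group correlated at 0.960 to 0.975.

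From these values, limma 3.58.1 under R 4.3.3 estimated 1 mean for each group from the 12 libraries together, letting the variance depend on intensity, over loci that reached 1 FPKM in 3 or more libraries. P-values were two-sided and adjusted by Benjamini-Hochberg over those loci. Calls needed an adjusted p below 0.05 together with group means of FPKM, without a pseudocount, more than 2-fold apart. Differences are given in log2(FPKM + 1), which makes changes of low genes look smaller. The fit was tested on simulated data. The replicate numbers were checked for pairing over all tested loci together, and libraries of the same number deviated together only weakly. Alternatives were another pseudocount (0.1), filters (none, or an FPKM of 5), scalings, a fit restricted to the libraries compared, the replicate block, no intensity trend, other thresholds and each library left out.

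The members and lists were chosen with earlier results of these data known. Named are all 9 members, YAP1 and 3 reference targets, list genes past both criteria in YAP-2SA against Control with up to 4 others per list, and the 5 loci most like the members with the greatest rise and fall. KRT18, RPL39 and marker genes are named as checks, and the list counts without the library labelled Control replicate 3 were added after the data were seen. Coordinates are those of GENCODE v44 on GRCh37, and promoter sequences those of RefSeq. Plots were made in matplotlib 3.10.9 under Python 3.11.15.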

Additional observations from a re-analysis of the deposited data

How the results depend on the processing

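Over 705 alternative fits of single members, 696 kept the direction of a called value and its side of the adjusted p, 5 lost the call, 4 gained one and none reversed, and 26 differences that were called in neither setting changed sign. 8 of the 9 changes of call were those of PTPN14, given beside its values, and the other was FAT4 once the filter was dropped. Scaling by median ratio or quantiles moved the median over all loci by under 0.1 on the log2 scale.

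Counts moved with the thresholds, the filter, the samples fitted and the pseudocount. Past both criteria, a filter at an FPKM of 5 left 1202 loci in YAP-2SA against Control, 219 in YAP-S127A against Control, 848 in YAP-2SA against YAP-S127A and 298 in YAP-S127A against YAP-S94A,S127A, since fewer loci were tested, and it left 1 member by adjusted p in YAP-S127A against Control, since it removed LIMD1. Without the fold threshold these 4 comparisons held 6375, 950, 4936 and 1607 loci, and the last 3 held 2, 4 and 3 members. With the fold taken on the log2(FPKM + 1) scale the last 3 held 194, 1086 and 251 loci, and at an adjusted p under 0.01 they held 499, 3166 and 766 by adjusted p. A fit of only the libraries compared gave 447 loci by adjusted p in YAP-S127A against Control and 1066 in YAP-S127A against YAP-S94A,S127A. Adding 0.1 gave 17 loci past both criteria in YAP-S94A,S127A against Control. The causes of these last shifts were not tested.

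With each library left out in turn, loci by adjusted p ran from 621 to 889 in YAP-S127A against Control, lowest without Control replicate 2, and from 961 to 1576 in YAP-S127A against YAP-S94A,S127A, lowest without YAP-S94A,S127A replicate 3 and at 1022 without its replicate 1. Members past both criteria ran from 0 to 1 in YAP-S127A against Control, at 0 without Control replicate 2 or YAP-S127A replicate 1 or 3, and from 1 to 2 in YAP-2SA against YAP-S127A.

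Over all tested loci, libraries of the same number did not deviate together. Correlations of deviations ran from -0.149 to 0.163 in 18 pairs, over 0.1 in 2, and 5 of 12 libraries were closest to their own number. With the replicate block, loci by adjusted p numbered 6828, 1032, 24, 5287 and 1771 over the 5 comparisons, and no member's call changed.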
